A study of Rattus norvegicus with 2 samples.

Results

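The sympathoadrenal lineage factors Phox2a, Hand2, Gata2, Gata3, Insm1 and Isl1, together with the receptor tyrosine kinase Ret, were followed in the adrenal medulla of rats during insulin-induced hypoglycemia. The genes were chosen by name, and every probe set that the platform annotation gives to exactly 1 of them was taken. This gave 12 of 31042 probe sets, over 6 of 14217 genes. No probe set was annotated to Insm1, a zinc finger factor of neuroendocrine cells, so it has no value here.

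Adult male Sprague-Dawley rats of 2 groups were compared, both sampled during the glucose clamp of day 4, 30 min after each rat reached its target. 2RH30 rats had been given intraperitoneal human insulin at 2 IU/kg, with 2 injections per day over 3 days, and 2RS30 rats had been given saline on the same schedule. According to the methods, the last of those days had a single injection. Both groups were fasted overnight and were infused with insulin and dextrose to hold glucose at 40 to 50 mg/dL by the sample labels, so both were under the clamp when sampled and differ by label in the treatment of the preceding days. The text of the paper gives narrower clamp targets, within the range of the labels. Each group is 1 array of RNA pooled from the left adrenal medulla of 6 rats, and arrays of other time points were not analysed here. A single array stands for each group, so no difference below can be checked against replicates, no p-value is given, and variation between animals cannot be seen.

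Chromaffin cells, the epinephrine-secreting cells of the medulla, come from the neural crest, and their identity is set by a network in which the homeodomain factor Phox2a, the basic helix-loop-helix factor Hand2 and the zinc finger factors Gata2 and Gata3 turn on one another and the enzymes of catecholamine synthesis. Isl1, a LIM homeodomain factor, acts in sympathetic neurons and chromaffin cells. Ret is the signalling receptor for the glial cell line-derived neurotrophic factor (GDNF) family, which it reads together with a co-receptor of the GFRα family, and it is known for its part in tumours of this tissue.

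The sequences before the start sites of 3 of these genes are shown, picked after their array values were seen. Gata2 and Hand2 were higher in 2RH30 in every probe set, although 1 of Hand2 differed by only 0.41 on the log2 scale. Ret was lower in its brightest probe set. That of Dbh, the enzyme making norepinephrine from dopamine, is shown because it is a known target of Phox2a and Hand2. Each is the 250 bases before a RefSeq start site on the GRCr8 assembly, 5′ to 3′ on the strand of the gene. Capitals mark the core letters GATA of the GATA factors, the E-box CANNTG of basic helix-loop-helix factors and the core ATTA of homeodomain factors, each searched on both strands, and neighbouring matches may overlap, as the homeodomain and GATA cores in the Hand2 run TAATTATC do. The Gata2 window lies inside the annotated gene, which has several starts.
Gata2, chr4:122216031-122216280, plus strand: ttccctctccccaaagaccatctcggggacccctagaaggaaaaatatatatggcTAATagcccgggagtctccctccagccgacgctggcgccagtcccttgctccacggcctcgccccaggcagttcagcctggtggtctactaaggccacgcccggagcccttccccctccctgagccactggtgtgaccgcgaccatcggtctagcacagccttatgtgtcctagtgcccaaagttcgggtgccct
Hand2, chr16:37931489-37931738, minus strand: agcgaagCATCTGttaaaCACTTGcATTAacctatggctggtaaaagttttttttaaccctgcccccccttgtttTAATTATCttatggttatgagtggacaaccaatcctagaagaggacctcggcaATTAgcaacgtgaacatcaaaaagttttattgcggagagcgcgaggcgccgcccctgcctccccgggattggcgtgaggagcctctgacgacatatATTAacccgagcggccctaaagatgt
Ret, chr4:153040557-153040806, minus strand: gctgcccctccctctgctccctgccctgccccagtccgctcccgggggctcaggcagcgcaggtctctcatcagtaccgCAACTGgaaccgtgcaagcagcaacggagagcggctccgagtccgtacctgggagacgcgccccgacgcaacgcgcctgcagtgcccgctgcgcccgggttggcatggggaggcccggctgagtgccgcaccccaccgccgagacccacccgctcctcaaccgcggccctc
Dbh, chr3:30886078-30886327, plus strand: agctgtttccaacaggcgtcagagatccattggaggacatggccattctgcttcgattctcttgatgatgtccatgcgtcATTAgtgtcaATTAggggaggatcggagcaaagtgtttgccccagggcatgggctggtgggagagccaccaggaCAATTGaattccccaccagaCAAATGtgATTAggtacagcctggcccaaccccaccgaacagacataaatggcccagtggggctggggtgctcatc
The Hand2 window holds 5 matches to the homeodomain core, 2 E-boxes and 1 GATA core. The Dbh window holds 3 homeodomain cores and 2 E-boxes. In contrast, the Gata2 window holds 1 homeodomain core and the Ret window 1 E-box. The letters are common: of 33469 windows of this length, 55.9% hold the GATA core, 65.5% an E-box and 57.0% the homeodomain core. A match is a description of the letters, and binding was not measured.

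Values are the deposited log2 values of each array, and a difference is 2RH30 minus 2RS30 on that scale. The 2 arrays did not match in technical respects. The bacterial spike-in bioB had differences of -3.03 to -3.51, values were spread more widely in 2RH30 (SD over probe sets 1.57 against 1.28), and over 20 bins of level the median difference climbed from -0.38 at the dim end to 0.49 at the bright end. Therefore each difference is also given after a lowess curve of difference on level was taken away, called trend-corrected. Probe sets under the median of both arrays are called dim. A probe set under the median on 1 array only is not dim through the other array alone, so it could only be higher on that one. The SD between probe sets of 1 gene, pooled over 2539 genes with 2 or more probe sets that are not dim, was 0.82. It holds no spread between animals. Levels are not compared between genes, because each probe set has its own sensitivity.

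The tissue label was checked first. The chromaffin markers Th, Dbh and Pnmt, the enzymes of catecholamine synthesis and of its last step, read 11.45, 8.22 and 11.35 in 2RS30 and 11.96, 9.17 and 11.67 in 2RH30. All 9 chromaffin markers listed were measured and none was dim, with a summed linear value 1.43 times as high in 2RH30 as in 2RS30. However, cortical steroid genes were bright on both arrays as well, with Star, the mitochondrial cholesterol carrier, named after its values were seen, at 11.81 in 2RS30 and 12.51 in 2RH30. All 8 measured cortex markers were above 0 in their deposited difference, and their summed linear value was 1.57 times as high in 2RH30, against 1.27 times over all genes. Cortical RNA was thus measured in both pools. Its part in the differences below was not tested, and fewer cells of a type cannot be told apart from less RNA per cell.

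As deposited, 4 of the 12 probe sets read at least 2-fold higher in 2RH30, against 10.4% of all probe sets, and 2 were 2-fold or more lower, against 12.1%. The higher ones belong to Gata2, Gata3, Hand2 and Isl1, 1 each, and the lower ones to Ret and Isl1. Trend-corrected, 3 were higher (background 8.99%) and 2 were lower (background 10.2%), the Gata3 probe set being the one that was no longer 2-fold. The median difference over the 12 probe sets was 0.48 and trend-corrected 0.57, against 0.02 and 0.00 over all probe sets. Of the 12, 9 were not dim. A total of 3 of those lay above the median only on the 2RH30 array, so they could only be higher there, and the median of the 9 is no support for a direction. Read from the probe set of the highest mean value, 3 of 6 genes were at least 2-fold higher (11.5% of all genes) and 1 was at least 2-fold lower (9.62%). Trend-corrected, 2 were higher (8.95%) and 1 was lower (9.31%). The median over the 6 genes was 0.76, trend-corrected 0.39, against 0.11 and 0.02 over all genes. It was 0.22 when the probe sets of each gene were averaged. Of the 3 higher genes, Gata3 and Isl1 each have a second probe set with a difference of the opposite sign.

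**Figure D1:**
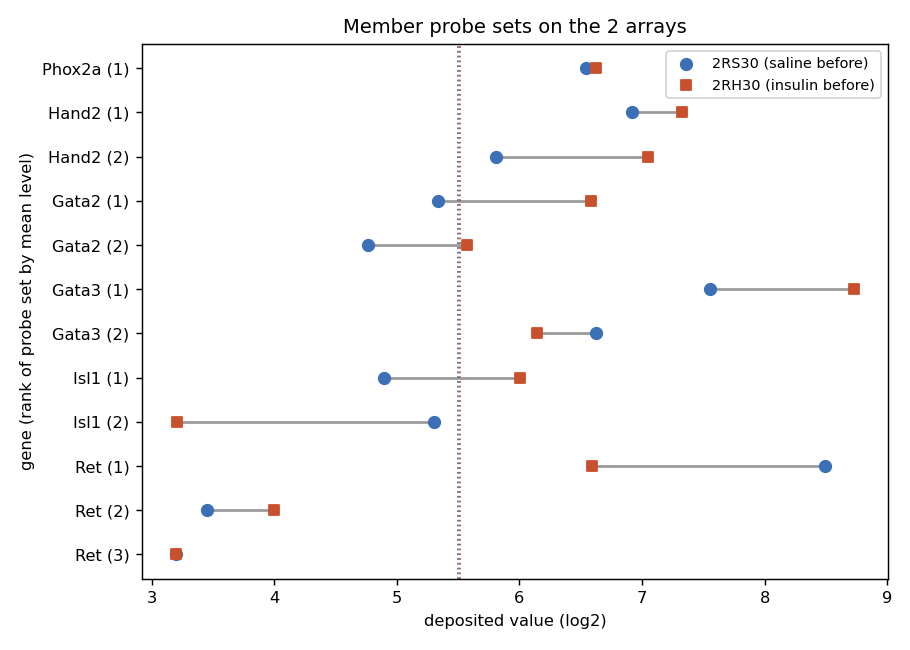
Deposited log2 value (horizontal axis) of each of the 12 probe sets (vertical axis, gene and rank by mean value) in 2RS30 (circles) and 2RH30 (squares), 1 array of pooled RNA each. Dotted lines are the array medians, 5.50 and 5.51; both probe sets of Gata2 and of Hand2 have their square to the right, whereas those of Gata3 and Isl1 go both ways.

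Phox2a, the homeodomain factor that switches on Th and Dbh, has 1 probe set (1387238_at). It read 6.54 in 2RS30 and 6.62 in 2RH30. The difference was 0.08, and trend-corrected -0.18, so its sign depends on the adjustment and its size is under the SD between probe sets. Among probe sets of similar level, 10.6% had a difference as small or smaller.

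Hand2, a basic helix-loop-helix factor needed for the noradrenergic programme, was read by 2 probe sets. The one with the higher mean (1374451_at, designed from an expressed sequence tag) read 6.92 in 2RS30 and 7.33 in 2RH30, which differ by 0.41 (trend-corrected 0.07). The other (1369817_at, from the RefSeq transcript) read 5.81 and 7.05, a difference of 1.24 (trend-corrected 1.02), or 2.37 times as high. Both probe sets were higher in 2RH30 in both forms, although the first lay close to the level trend. Hand1, its closest relative, had the highest difference of the other lineage factors that are not dim, 2.54 (trend-corrected 2.16), from 6.12 in 2RS30 to 8.66 in 2RH30. The other Hand1 probe set was dim and differed by 0.47 (trend-corrected 0.91).

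Gata2, a zinc finger factor of sympathetic precursors that also marks endothelium and mast cells, was the member whose probe sets lay closest together. They read 5.33 in 2RS30 and 6.59 in 2RH30 (1391882_at), and 4.77 and 5.57 (1368297_at). The differences were 1.25 and 0.81, or 2.38 and 1.75 times as high in 2RH30, and trend-corrected 1.08 and 0.85. Of these values 0.81 lay just under the SD between probe sets and the others above it. Both probe sets lay under the array median in 2RS30 and above it in 2RH30. Of the cell types that also express Gata2, 7 measured mast cell markers had a median difference of -0.46 (trend-corrected -0.24), with 6 of 7 below 0. The 8 measured endothelial markers had a median of 0.34 (trend-corrected 0.32). As deposited 1 of them, Egfl7, an endothelial secreted factor, was 2-fold or more higher at 1.02 (trend-corrected 0.56), against 11.5% of all genes. Trend-corrected 1 was, against 8.95% of all genes. It was the dim Emcn, at 1.05 (as deposited 0.88), named after its values were seen. The part of these cell types in the Gata2 values was not tested.

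Gata3, the zinc finger factor that maintains catecholamine synthesis in chromaffin cells and also directs T helper cells, went both ways. The probe set from the RefSeq transcript (1369525_at) read 7.55 in 2RS30 and 8.73 in 2RH30, which differ by 1.18 (trend-corrected 0.71). The other (1382163_at, from an expressed sequence tag) read 6.62 and 6.15, a difference of -0.47 (trend-corrected -0.70). No direction can be given for the gene from these values. The T cell and innate lymphoid markers had a median difference of -0.70 (trend-corrected -0.65). Of 9 measured, 6 were below 0 and 2 were 2-fold or more lower, Il7r, a cytokine receptor, at -1.67 (trend-corrected -1.72) and Cd3d, a subunit of the T cell receptor complex, at -1.04 in both forms, and their summed linear value in 2RH30 was 0.755 times that in 2RS30. Trend-corrected, 7 were below 0 and 3 were 2-fold or more lower, the third being Lck, a kinase of T cell receptor signalling, at -1.05. Of all genes, 9.62% were lower by that much as deposited and 9.31% trend-corrected. Their part in the Gata3 values was not tested. Cd3d and Lck were named after their values were seen.

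Isl1 had the widest disagreement. The probe set from the RefSeq transcript (1369681_at) read 4.90 in 2RS30 and 6.01 in 2RH30, which differ by 1.11 (trend-corrected 1.06), or 2.16 times as high. The other (1396895_at, from an expressed sequence tag, dim) read 5.31 and 3.21, a difference of -2.10 (trend-corrected -1.72), or 4.29 times as high in 2RS30. Its 2RH30 value sits just above 3.16, which is the 5th percentile there, and the size of so dim a difference is uncertain. The first probe set, 1369681_at, also lay under the array median in 2RS30. It is not dim, and has the higher mean, only through its value in 2RH30. No direction can be given for Isl1 from these values. Isl2, the paralogue of Isl1, differed by 0.35 and 0.21 in its 2 probe sets (trend-corrected 0.15 and 0.04) and was named after its values were seen.

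Ret had the largest difference of the members that are not dim. The probe set 1388208_a_at, which by the array's naming matches several transcripts of the gene, read 8.49 in 2RS30 and 6.59 in 2RH30. The difference was -1.90, or 3.74 times as high in 2RS30, and trend-corrected -2.30, or 4.93 times. At its level the median difference was 0.39 in the other direction, and 98.4% of probe sets of similar level had a difference as small or smaller. However, the other 2 probe sets were dim and did not show it. They read 3.46 in 2RS30 and 4.00 in 2RH30 (1371112_at, a difference of 0.54, trend-corrected 0.99) and 3.20 on both arrays (1370989_at, a difference of -0.0013, trend-corrected 0.42). In 2RS30 both lay under the 5th percentile of the array, 3.67. In the platform annotation 1371112_at carries the same transcript record as the bright probe set. The lower Ret value thus rests on 1 probe set.

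**Figure D2:**
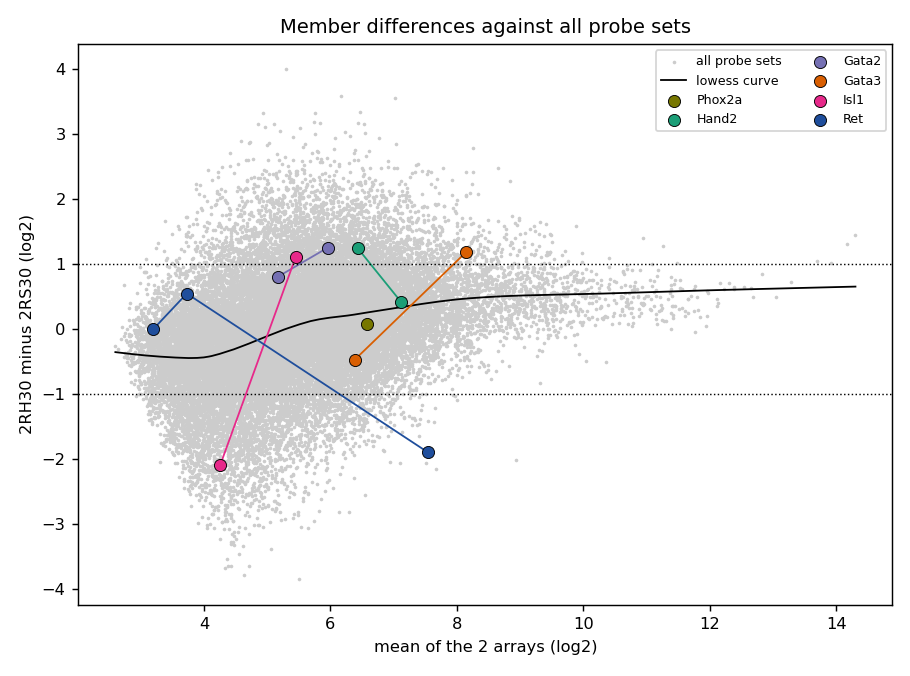
Difference between the arrays (log2, vertical axis) against the mean of the 2 arrays (log2, horizontal axis) for all 31042 probe sets (grey) and the 12 of the members (coloured, joined within a gene), with the lowess curve (black) and the 2-fold thresholds (dotted). The bright Ret probe set at -1.90 lies at the lower edge of the grey cloud at its level, and the 2 points of Isl1 lie on either side of 0.

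The distance between probe sets of a gene gives the only measure of error within these arrays. Over 4525 genes with 2 or more probe sets, the 2 with the highest mean values had a median gap of 0.70 between their differences, and 57.9% of genes had both of the same sign. The gap was 0.45 for Gata2, and 66.5% of genes had a larger one. It was 0.84 for Hand2 (42.3% larger) and 1.65 for Gata3 (13.3% larger). The gap was 2.45 for Ret (3.62% larger) and 3.21 for Isl1 (0.751% larger). Dim probe sets were kept in these gaps, unlike in the SD between probe sets. In Ret and Isl1 the second probe set is dim, so their gaps and signs rest on a dim value. Gata2 and Hand2 were the genes with probe sets of the same sign, and in Gata3, Isl1 and Ret the signs were opposite.

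**Figure D3:**
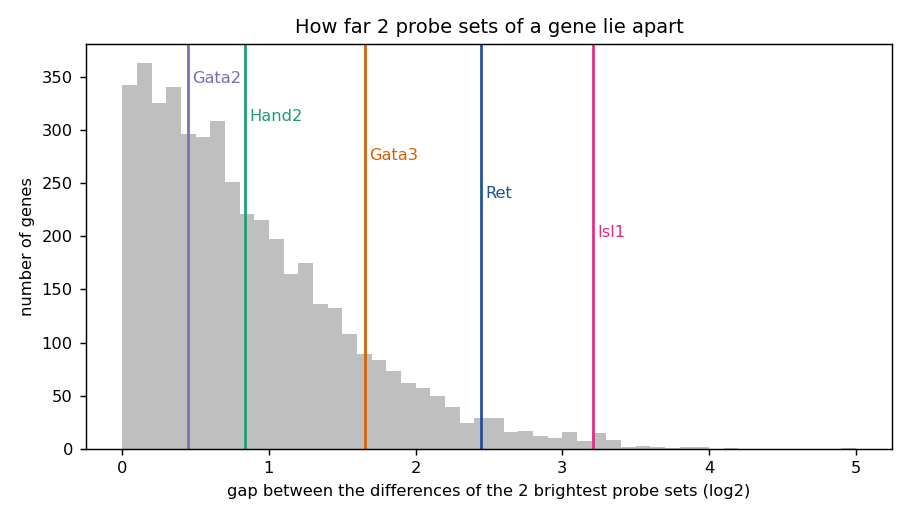
Number of genes (vertical axis) by the gap between the differences of the 2 probe sets with the highest mean values (log2, horizontal axis), for 4525 genes, with the members of 2 or more probe sets as coloured lines. Gata2 at 0.45 lies under the median gap of 0.70, and Isl1 at 3.21 lies in the far tail.

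The ligands and co-receptors of Ret were next compared. Of 8 measured genes of 10 listed, 0 were higher by 2-fold or more and 1 was lower by as much (11.5% and 9.62% of all genes), with a median of -0.12 (trend-corrected -0.14, with 0 higher and 2 lower). The lower one was Gfra4, the co-receptor for persephin, which read 6.96 in 2RS30 and 5.88 in 2RH30, with a difference of -1.09 (trend-corrected -1.31). Gfra1, the co-receptor for GDNF, read 5.97 and 4.99, a difference of -0.99 (trend-corrected -1.05), but its other, dim probe set differed by 0.89 (trend-corrected 1.22). Gfra2, the co-receptor for neurturin, differed by -0.42 (trend-corrected -0.56) in one probe set and by 0.96 (trend-corrected 0.91) in the second. Gfra3, the co-receptor for artemin, was dim and differed by -0.33 (trend-corrected -0.12). The ligands Gdnf and Nrtn, which encodes neurturin, differed by 0.36 and 0.39 (trend-corrected 0.11 and 0.21). The co-receptors with 2 probe sets thus disagreed in sign, as Ret did. Artn had no probe set annotated to it.

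Of 27 measured genes of Ret signal transduction, 6 were higher by 2-fold or more (11.5% of all genes were) and 1 lower (9.62% of all genes), with a median of 0.57. Trend-corrected, the median was 0.34, with 5 higher (8.95% of all genes) and 1 lower (9.31%). Frs2, a docking protein that binds activated Ret, differed by 2.19 in both forms, from 4.20 to 6.39, but by -0.37 (trend-corrected -0.19) in its other, dim probe set. Dok5, an adaptor of the same pathway, differed by -1.92 (trend-corrected -1.81), from 5.98 to 4.07. Its second probe set was dim, at -0.73 (trend-corrected -0.44). The other genes 2-fold or more higher when trend-corrected, named after their values were seen, were the ubiquitin ligase Cblb at 1.22, the feedback inhibitor Spry4 at 1.005, and the dim adaptors Dok1 and Dok2 at 1.34 and 1.39. In their brightest probe sets Frs2, Cblb and Spry4 lay above the array median only in 2RH30, so they could only be higher there. That of Dok5 lay above it only in 2RS30, so it could only be lower in 2RH30.

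The factors that act with the members were compared as well. Of 16 measured partners and inhibitors, 5 were higher by 2-fold or more and 1 lower, against 11.5% and 9.62% of all genes, with a median of 0.73. Trend-corrected, 2 were higher and 0 lower, against 8.95% and 9.31%, so that the share of higher ones was near the background, with a median of 0.49. By the brightest probe set of each gene, the highest was Kdm1a, a histone demethylase recruited by Insm1. It read 4.39 in 2RS30 and 6.97 in 2RH30, which differ by 2.58 (trend-corrected 2.46). Ldb1, the adaptor that links LIM homeodomain and GATA complexes, read 4.34 and 5.98, a difference of 1.65 (trend-corrected 1.69). Kdm1a and Ldb1 were the 2 that passed in both forms, and each has 1 probe set. Both lay under the array median in 2RS30 and above it in 2RH30, so they could only be higher there. The remaining higher ones, named after their values were seen, were Id1 and Id3, inhibitors of basic helix-loop-helix factors, at 1.18 and 1.25 (trend-corrected 0.99 and 0.76), and the E protein Tcf4 at 1.05 (trend-corrected 0.75). The other Tcf4 probe set differed by -0.98 (trend-corrected -1.13). Some genes not counted had a second probe set, not dim, that was 2-fold different, and these too were named after their values were seen. It was higher in Id2, at 2.95 (trend-corrected 2.66), and Rcor1, at 1.95 (trend-corrected 1.79), and lower in Tcf12, at -1.62 (trend-corrected -1.61). Those of Id2 and Rcor1 lay above the array median only in 2RH30, and that of Tcf12 only in 2RS30. Each could thus only differ in the direction it did. The lower one, the dim Ldb2, a relative of Ldb1, differed by -1.13 (trend-corrected -0.68). Zfpm1, a cofactor of GATA factors, differed by 0.70, 0.54 and -0.59 in its 3 probe sets (trend-corrected 0.32, 0.20 and -0.90). Lmo4, a LIM-only protein, differed by 0.05 in its brightest probe set (trend-corrected -0.32) and by -0.99 to 1.56 in the other 4. Twist1, a basic helix-loop-helix factor that can pair with Hand proteins, was the lowest that is not dim, at -0.09 (trend-corrected -0.29).

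Of 14 other sympathoadrenal factors measured, 3 were higher by 2-fold or more and 1 lower in both forms, with a median of 0.34 (trend-corrected 0.11). Of all genes 11.5% were higher and 9.62% lower by that much, and trend-corrected 8.95% and 9.31%. The higher ones were Hand1, given above, and, named after their values were seen, Tfap2b, a factor of sympathetic precursors, at 1.82 (trend-corrected 1.51) and Prox1, a homeodomain factor, at 1.64 (trend-corrected 1.48). The other Prox1 probe set differed by 0.15 (trend-corrected 0.19). The other 2 of Tfap2b differed by 0.05 (trend-corrected 0.08, dim) and by 0.97 (trend-corrected 1.07). Sox4 and Tlx2, named after their values were seen, were not counted, at 0.48 and 0.33 in their brightest probe sets (trend-corrected 0.01 and -0.09). The other probe sets of Sox4 that are not dim differed by 2.07, 2.04, 1.78, 1.06 and 0.68 (trend-corrected 1.62, 1.69, 1.70, 0.64 and 0.51). The one at 1.78 lay above the array median only in 2RH30. The dim one of Sox4 differed by -0.29 (trend-corrected 0.07). The other probe set of Tlx2 differed by 1.04 (trend-corrected 0.85). The lower one was Tfap2a, a neural crest factor and paralogue of Tfap2b, which read 7.34 in 2RS30 and 5.40 in 2RH30, with a difference of -1.94 (trend-corrected -2.16). Of 12 measured genes of BMP and neurotrophin input to the lineage, 2 were 2-fold or more higher and 0 were lower (trend-corrected 1 and 0), against the same shares of all genes, with a median of 0.43 (trend-corrected 0.33). The higher ones were the BMP receptors Bmpr1a, at 1.35 (trend-corrected 1.20), and Bmpr2, named after its values were seen, at 1.07 (trend-corrected 0.55). The other Bmpr2 probe set, above the array median only in 2RH30, differed by 1.31 (trend-corrected 1.22). The lowest gene that is not dim was Ntf3, a neurotrophin, at -0.19 (trend-corrected -0.42).

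The enzyme genes Th, Dbh and Pnmt differed by 0.51, 0.95 and 0.31, and trend-corrected by -0.08, 0.45 and -0.27. None was 2-fold different. The median over the 9 chromaffin markers was 0.51 as deposited and 0.09 trend-corrected, and the highest was the peptide gene Cartpt at 1.12 (trend-corrected 0.81).

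**Figure D4:**
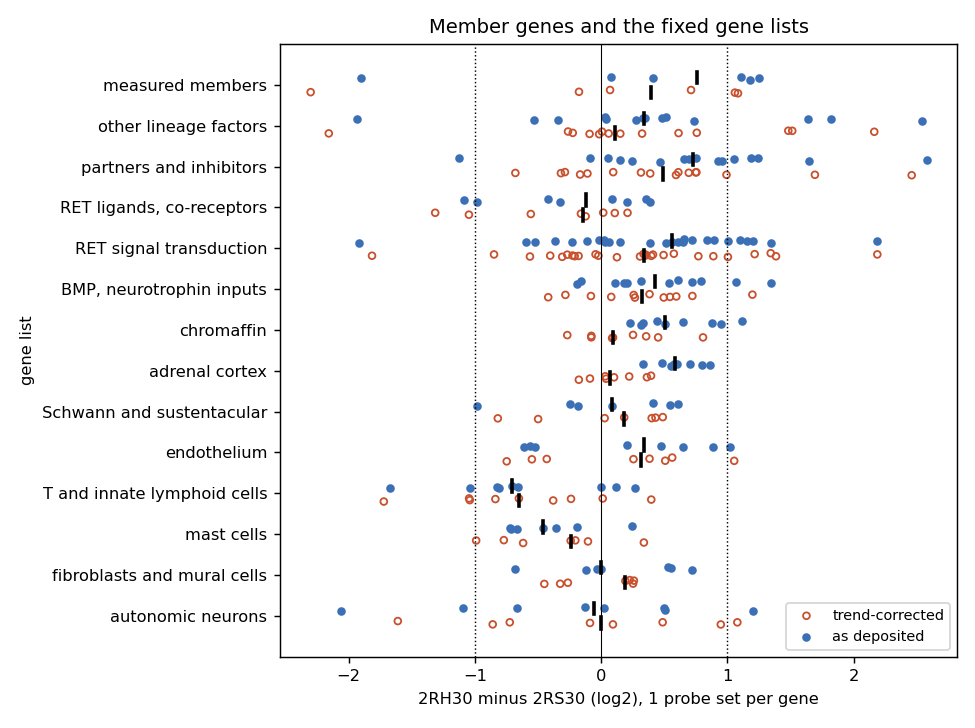
Values of 2RH30 minus those of 2RS30 (log2, horizontal axis) for the genes of each list (vertical axis), 1 probe set per gene, with filled points for deposited and open points for trend-corrected values, the median of each as a black bar, and the 2-fold thresholds dotted. The 6 measured members have a median of 0.76, trend-corrected 0.39, and the medians of the chromaffin and cortex markers go from 0.51 and 0.59 to 0.09 and 0.07.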

How the data were processed

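RNA from the left adrenal medulla was pooled over 6 rats per group and hybridized to Affymetrix rat genome arrays, 1 per group. The values the authors deposited are on a log2 scale, 1 for each probe set and array; the processing notes name Affymetrix Expression Console without a version. The methods of the paper name GCRMA, run in Partek, but whether the deposited values were summarized by it is not stated. The paper calls the values quantile-normalized, yet once sorted the arrays differ at some ranks by as much as 1.45. The log2 scale was read from their range. Depth does not apply to arrays, and their number limits the precision.

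Of 31099 probe sets 57 controls were set aside. Names came from the platform annotation, with symbols updated by gene number through RefSeq (GRCr8), where 20758 of 20826 probe sets with 1 gene matched; 436 had several genes and 9780 none. Differences were adjusted by lowess (fraction 0.3, 3 iterations). Genes were read from the probe set of the highest mean. No test was run, because each group has 1 array. Scripts were tested on simulated data. Members and lists were chosen with earlier results of these data known. Genes named are all members, preset genes of the lists, and the highest and lowest gene of each list that is not dim, and exceptions are stated. That choice favours genes above the median on 1 array only. Those above it only in 2RH30 include Kdm1a, Ldb1, Frs2, Cblb, Spry4, Prox1, Bmpr1a and Nos1. Il7r, Cd3d, Dok5, Gfra1, Tfap2a and Hdc are among those above it only in 2RS30. The genes nearest to each member in level on both arrays, which the rule also asked for, are not reported, because levels of different probe sets cannot be set against each other. The lists of Schwann and sustentacular cells, fibroblasts and mural cells and autonomic neurons appear in the closing text. Alternatives were other scalings, the lowess adjustment, other thresholds, and other choices of probe sets. The tools were statsmodels 0.14.6, pandas 2.3.3 and numpy 2.4.6 under Python 3.11.15, with figures from matplotlib 3.10.9.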

Additional observations from a re-analysis of the deposited data

How the results depend on the processing

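Against 4 probe sets 2-fold or more higher and 2 lower, centring, quantile normalization and lowess gave 3 or 4 higher and 2 lower. At the 3-fold threshold 0 were higher and 2 lower. Without dim probe sets, with the brightest probe set per gene, and with unique probe sets only, 1 was lower in each case, by construction, since these leave out a probe set of Isl1 or of Ret. The median over the 6 measured genes, 0.76, was 0.39 after quantile normalization and 0.39 after lowess, and 0.22 when the probe sets of each gene were averaged. The other medians moved by less than 0.33, the SD between probe sets over the root of the number of genes. Isl1 changed sign, from 1.11 to -0.49, with the mean over its probe sets. Gata3 went from 1.18 to 0.35 in the same setting, without a change of sign. Ret changed sign, from -1.90 to 0.54, with unique probe sets only, which leave its dim ones, and was -0.45 with the mean over its probe sets. Of the 36 alternative values of single members, 32 moved by less than the SD between probe sets, 0.82. Many of these could not move, by construction. Without dim probe sets each gene was read from the same probe set, as it was with unique ones except for Ret. Centring shifts all genes alike. The 32 are thus no measure of how stable the values are. No paired analysis was possible because there is a single array on each side. The files carry no background signal, so no limit of detection can be set for dim probe sets. The cause of other changes was not tested.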

Other observations

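Other cell types of the medulla gave these values. Of all genes, 11.5% were higher by 2-fold or more and 9.62% lower, and trend-corrected 8.95% and 9.31%. The 7 measured Schwann and sustentacular markers had a median difference of 0.09 (trend-corrected 0.18), and 0 of them were 2-fold different in either form. Their lowest gene that is not dim was Foxd3, a neural crest factor, at -0.25 (trend-corrected -0.50), and their highest Mbp, a myelin protein, at 0.61 (trend-corrected 0.40). The 7 fibroblast and mural markers had a median of 0.00 (trend-corrected 0.19), with 0 of them 2-fold different. Autonomic neurons also use Phox2a, Hand2, Isl1 and Ret. Among 8 of their markers, 1 was higher by 2-fold or more and 2 lower (trend-corrected 1 and 1), against the shares of all genes given above. Nos1, the neuronal nitric oxide synthase, differed by 1.20 (trend-corrected 1.08), and Prph, an intermediate filament of peripheral neurons, by -0.66 (trend-corrected -0.86). The lower ones, named after their values were seen, were dim, Slc5a7, the choline transporter, at -2.06 (trend-corrected -1.61) and the peptide gene Vip at -1.10 (trend-corrected -0.72). Their part in the values of the members was not tested.

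The highest and lowest genes of the other marker lists, where not given above, were as follows. Among cortex markers Gata6, a GATA factor of the cortex, differed by 0.87 (trend-corrected 0.36) and Nr5a1, the steroidogenic factor, by 0.33 (trend-corrected -0.18) in its brightest probe set and by 1.69 (trend-corrected 1.39) in its second. As deposited, the lowest chromaffin marker was Ddc, the decarboxylase of catecholamine synthesis, at 0.23 (trend-corrected -0.08) in its brightest probe set. Its second differed by 0.80 (trend-corrected 0.73). Trend-corrected, the lowest was Pnmt at -0.27. The lowest endothelial marker that is not dim was Vwf, a clotting factor carrier, at -0.52 (trend-corrected -0.75), and the highest T cell marker was Cd4, a co-receptor, at 0.27 (trend-corrected 0.01). Of the mast cell markers, Hdc, which makes histamine, differed by -0.72 (trend-corrected -0.77) and Ms4a2, an IgE receptor subunit, by -0.46 (trend-corrected -0.62). Of the fibroblast and mural markers, Dcn, a matrix proteoglycan, differed by 0.72 (trend-corrected 0.19) and Pdgfrb, a growth factor receptor, by -0.12 (trend-corrected -0.45).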
